A study of Mus musculus with 60 samples.

Results

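Liver tumours were compared with normal livers of mice labelled as carrying CD74-NRG1, a fusion of Cd74, a membrane-bound chaperone of MHC class II, with neuregulin 1, a ligand of the receptor Erbb3. The comparison held 11 libraries, 3 from tumours (mice M00236, M00248 and M00249) and 8 from normal livers (mice M00235 to M00238 and M00245 to M00248), out of 42 tissue libraries and 60 in the whole series. Libraries were chosen by tissue of origin and by the tumour or normal group in the labels, and mice M00236 and M00248 gave both a tumour and a normal liver. Mice that gave normal livers also had tumours in other tissues sampled, sarcomas in M00235 to M00238, M00245 and M00248 and intestine tumours in M00247. Mouse M00246 gave no tumour library. The title of the M00249 library does not name a tumour, and its group comes from another label field. Both groups were of the line named Rosa26CD74-NRG1/Flp, in which the Flp deleter allele removes a stop cassette in the early embryo, so by the labels the normal livers carry the fusion as well and no liver without it entered the comparison. Expression follows the Rosa26 locus and is described as nearly ubiquitous, not limited to hepatocytes. The labels used here give no age, sex, treatment or tumour stage. RNA from cryostat sections of fresh frozen tissue was read by QuantSeq, a method that counts reads at the 3' end of transcripts. Levels of single libraries are given as CPM, the expected count of a gene scaled by the total of its library. Since a section holds many cell types, fewer cells of a type and less RNA per cell cannot be told apart.

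Hepatocytes make most plasma proteins, glucose, urea and bile acids, and divide this work along the axis from the portal vein to the central vein, where Wnt signalling keeps a band of cells that make glutamine. Liver tumours of mouse and human often lose parts of this programme and express genes of the fetal liver, such as Afp (alpha-fetoprotein). Neuregulin binds Erbb3, which signals with Erbb2 to the ERK and PI3K pathways.

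Hepatocyte-defining genes were detected in each liver, and were lower in part in tumours. Their summed level over 12 genes was 23286 to 102370 CPM in tumours and 48391 to 81046 CPM in normal livers, with Alb making 69449 of the 102370 CPM of tumour M00248. As a mean of log2(CPM + 1), which weights the genes equally, the level was 9.64 to 10.08 in tumours and 10.81 to 11.30 in normal livers, with no overlap. Of the 12, 5 were lower and none higher (median log2 fold change -1.23). The part of these markers in the lower metabolic genes below was not tested. Total counts lay between 6926521 and 10089572, and mitochondrial transcripts took 11.1 to 21.0% in tumours and 9.79 to 20.1% in normal livers. Where a gene had no count, its level may reach that of 3 counts, 0.297 to 0.433 CPM by library, with counting error alone considered. A pair of normal livers stood apart. The liver of M00247 had 864 counts of Xist, the transcript of the inactive X chromosome, against 0 to 7 in the other 10 libraries, and 1.59 CPM of Y-linked genes, against 36.3 CPM or more in the others. Xist was also present in the other 4 libraries of that mouse, at 244.9 to 577 CPM. Its median Pearson correlation with the other normal livers was 0.898 over log2(CPM + 1) of the genes tested, against 0.949 to 0.966 for the other 7. The liver of M00246 had 0.675 CPM of Nrg1 (neuregulin 1), against 27.6 CPM or more in the other normal livers, and its spleen, muscle and lung had 2.34, 1.30 and 5.37 CPM. The labels do not set M00246 apart, and whether this liver carries the fusion was not tested. Both livers had high acute-phase transcripts, and for many lists the counts without them are given as well.

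Of 13256 genes tested, 925 were higher and 482 lower in the 3 tumours than in the 8 normal livers (edgeR's quasi-likelihood test, Benjamini-Hochberg adjusted p under 0.05), which is 6.98 and 3.64% and together 10.6%. Without M00247 the count was 1919 (1172 or 8.97% higher, 747 or 5.72% lower), and 1332 of them were among the 1407. Without M00246 it was 1030 or 7.8% (4.63% higher, 3.17% lower, 1012 shared), and without both livers it was 1655 (7.71% higher, 5.01% lower, 1196 shared). Without tumour M00248 it was 860. With the mouse as a fixed block, which leaves little beyond the pairs of M00236 and M00248, no gene passed, and 941 had an unadjusted p under 0.05 (3330 in the fit with no block). By DESeq2 with no block 1990 genes passed, and by limma with the mouse as a random block 1310. In the random-block fit 45 of the 200 named genes that were called missed the threshold. Without the block, limma called 1472 genes. The random-block fit changed both the program and the block, so the loss of a single gene cannot be assigned to either. Groups did not overlap for 1097 genes in the higher direction (8.28%) and 337 in the lower (2.54%). The median log2 fold change of the genes tested was 0.09. The labels put each tumour in a mouse of its own, but 3 tumours limit the spread that could be estimated.

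The 3 tumours differed from one another. Set singly against the 8 normal livers, tumour M00236 had 1389 genes higher and 1161 lower, 10.5 and 8.76% of those tested. Tumour M00248 had 998 higher and 796 lower (7.53 and 6%), and tumour M00249 had 349 in all, of which 111 were lower (1.8% higher and 0.837% lower). In these fits the lone tumour was assumed to vary like normal livers, and the 3 comparisons share those livers. Against the mean of the other 2 tumours, M00236 differed in 1907 genes (14.4%), M00248 in 524 (3.95%) and M00249 in 251 (1.89%). Without normal liver M00247, the count against normal livers was 1240 for M00249 and 2788 for M00248.

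**Figure D1:**
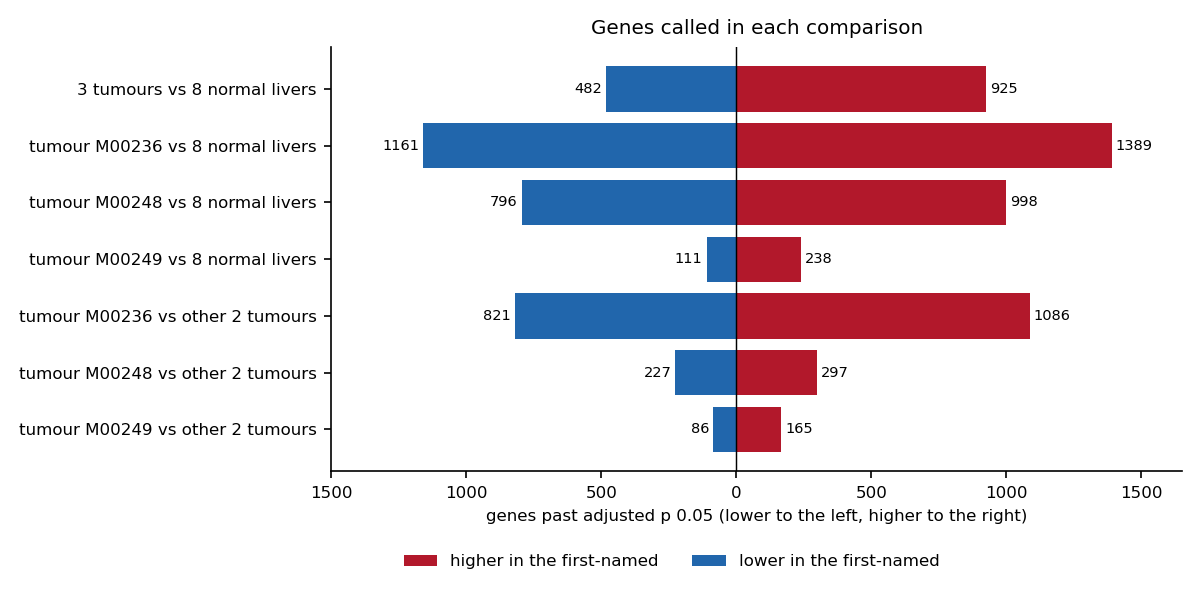
Number of genes past an edgeR adjusted p of 0.05 in each comparison, with genes higher in the first-named group to the right and lower to the left. Tumour M00236 had 2550 genes called against the normal livers and tumour M00249 had 349.

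The clearest change common to the tumours was in genes that were nearly silent in normal liver. Ubd, a ubiquitin-like modifier also called FAT10, stood at 189, 288 and 131 CPM in tumours M00236, M00248 and M00249, against a lowest, median and highest value of 0.306, 0.711 and 2.48 CPM in normal livers (log2 fold change 7.55 ± 0.42 SE, edgeR adjusted p = 2.10e-06). It had the smallest adjusted p of the comparison, and even the lowest tumour lay far above the highest normal liver. Apela, an early embryonic peptide ligand of the apelin receptor, had 10.6, 299.8 and 101 CPM in the 3 tumours, against 0, 0.107 and 0.143 CPM in normal livers, which held 5 counts in all (log2 fold change 10.35 ± 0.81 SE, edgeR adjusted p = 2.40e-05). Apln (apelin), the other ligand of that receptor, had 20.2, 16.3 and 10.9 CPM against 0, 0.0572 and 0.248 CPM (log2 fold change 7.04 ± 0.56 SE, edgeR adjusted p = 2.44e-05). Both ligands were separated from normal livers in each tumour, with Apela varying more between tumours than Apln. Both passed the filter on low counts through the tumours alone and so had to differ, which makes these values a description. The values of both ligands, Ubd and 5 further genes in each liver are drawn in the plot of single genes.

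**Figure D2:**
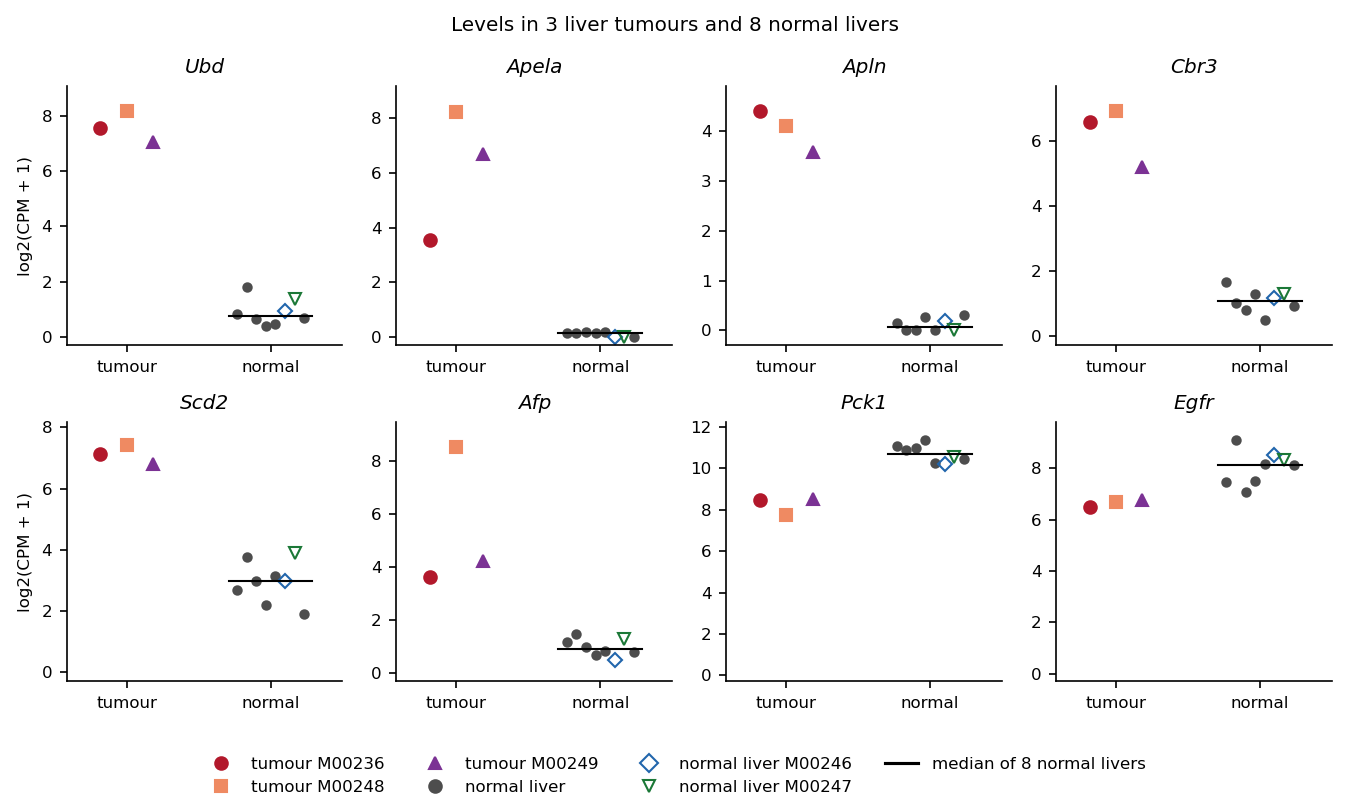
Level of 8 genes in each liver on a log2(CPM + 1) axis, with the 3 tumours to the left and the 8 normal livers to the right, and a line at the normal median. Ubd, Apela, Apln, Cbr3, Scd2 and Afp were higher in each tumour than in the highest normal liver, and Pck1 and Egfr were lower than in the lowest.

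Of 24 genes on a list of fetal liver, progenitor and liver tumour genes, 15 passed the filter on low counts, 11 were higher in tumours and none lower, with a median log2 fold change of 4.66 over the 15. Genes that passed the filter through the tumours alone had to differ, so the count is a description. Afp had 11.4, 364 and 17.9 CPM in the tumours, against 0.405, 0.896 and 1.801 CPM in normal livers (log2 fold change 6.83 ± 0.80 SE, edgeR adjusted p = 0.00041). Tumour M00248 held most of it, and the other two tumours also lay above the highest normal liver. Tspan8, a tetraspanin of epithelial cells, followed the same order, with 5.41, 504 and 63.9 CPM against 0.306, 0.73 and 2.97 CPM (log2 fold change 7.27 ± 0.89 SE, edgeR adjusted p = 0.000492, and limma adjusted p = 0.0574 with the random mouse block). Akr1c18, a progesterone-metabolizing aldo-keto reductase, had 35.2, 564 and 23.7 CPM against 0, 0.356 and 0.859 CPM (log2 fold change 8.94 ± 0.88 SE, edgeR adjusted p = 0.000119). Ly6d, a GPI-anchored surface protein, was highest in M00236, with 3651, 1691 and 251 CPM in the tumours against 3.06, 6.93 and 80.8 CPM (log2 fold change 6.77 ± 0.99 SE, edgeR adjusted p = 0.00148). Its highest normal value was that of M00247. Cbr3, a carbonyl reductase, was more even, with 95.1, 121 and 35.6 CPM in the tumours against 0.395, 1.11 and 2.17 CPM in normal livers (log2 fold change 5.99 ± 0.38 SE, edgeR adjusted p = 3.54e-06). Scd2, a fatty acid desaturase that is low in adult liver, had 139.7, 172 and 111 CPM against 2.73, 6.88 and 14.0 CPM (log2 fold change 4.09 ± 0.35 SE, edgeR adjusted p = 4.78e-05). The tumours and normal livers did not overlap in either gene.

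Genes outside that list were also near 0 in normal liver. Eps8l3, an Eps8-like adaptor, had 18.6, 24.0 and 4.68 CPM in tumours M00236, M00248 and M00249 and no count in any normal liver, so it was at least 354-fold higher against 3 counts over the 8 livers. Meltf (melanotransferrin) had 3.25, 14.4 and 9.12 CPM in the tumours and no count in normal livers, at least 199-fold higher by the same measure. Anxa13, an annexin of epithelia, had 12.6, 56.7 and 68.1 CPM against 0, 0 and 0.791 CPM (log2 fold change 7.39 ± 0.73 SE, edgeR adjusted p = 0.000119). Tekt5, a tektin, was highest in M00248, with 4.45, 69.5 and 11.5 CPM against 0, 0.125 and 0.204 CPM (log2 fold change 7.86 ± 0.77 SE, edgeR adjusted p = 0.000119). Each of these was detected in each tumour, above the highest normal liver, but the rule by which they were named required that separation. They also passed the filter on low counts through the tumours alone and so had to differ.

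Several pathways of hepatocyte metabolism held genes that were lower in tumours. Pck1, the rate-limiting enzyme of gluconeogenesis, had 353, 211 and 371 CPM in the tumours against 1169, 1694 and 2649 CPM in normal livers (log2 fold change -2.67 ± 0.37 SE, edgeR adjusted p = 0.000981). The 3 tumours lay below the lowest normal liver, and Pck1 also passed in each tumour taken singly, with log2 fold changes of -2.41, -3.24 and -2.50 (edgeR adjusted p = 0.0128, 0.00539 and 0.044). Of 14 gluconeogenesis genes, 4 were lower and none higher, among them Slc37a4, the glucose-6-phosphate transporter (log2 fold change -1.78 ± 0.32 SE), Tat, a tyrosine aminotransferase (-2.29 ± 0.49), and Got1, an aspartate aminotransferase (-1.64 ± 0.42). Of 20 genes of the urea cycle and amino acid breakdown, 11 were lower and none higher (median -1.15). Arg1, the arginase that releases urea, had 96.0, 289 and 342 CPM against 819, 1104 and 1499 CPM (log2 fold change -2.43 ± 0.38 SE, edgeR adjusted p = 0.00228). Cps1, the first enzyme of the cycle, had 55.1, 99.0 and 505 CPM against 492, 853 and 1182 CPM (log2 fold change -2.20 ± 0.57 SE, edgeR adjusted p = 0.0283), so that tumour M00249 lay within the normal range and the other two below it. Ass1 and Asl, the enzymes that make and split argininosuccinate, had log2 fold changes of -2.36 ± 0.45 and -2.07 ± 0.39 SE, and Fah, the last enzyme of tyrosine breakdown, had -1.37 ± 0.21.

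Of 16 genes of one-carbon and methionine metabolism, 9 were lower and none higher (median -1.27), including Mat1a, which makes S-adenosylmethionine in adult liver (957, 691 and 1141 CPM against 1762, 2603 and 4527 CPM, log2 fold change -1.79 ± 0.36 SE, edgeR adjusted p = 0.0078), and the folate enzyme Aldh1l1 (-1.70 ± 0.36). Of 26 genes of bile acid synthesis and transport, 6 were lower and 2 higher (10 lower and 2 higher without M00247, 5 and 1 without M00246). Slc10a1, the sodium-coupled bile acid importer, had 49.8, 3.57 and 16.6 CPM against 159, 299.7 and 377 CPM (log2 fold change -3.76 ± 0.72 SE, edgeR adjusted p = 0.00631), and Cyp8b1, the sterol hydroxylase that sets the share of cholic acid, had 3.25, 2.68 and 14.9 CPM against 29.6, 86.4 and 198 CPM (log2 fold change -4.03 ± 0.81 SE, edgeR adjusted p = 0.00833). Abcc4, an exporter of bile acids and drugs, went the other way, with 14.1, 33.2 and 34.7 CPM against 0.791, 1.28 and 3.44 CPM (log2 fold change 3.87 ± 0.42 SE, edgeR adjusted p = 0.000244). Of 56 cytochrome P450 genes, 51 were tested, 5 were lower and none higher (8 lower and 1 higher without M00247, 3 lower without M00246). Set singly against normal livers, their median log2 fold change was -0.855 in tumour M00236, -3.23 in M00248 and -1.04 in M00249. Of 30 hepatocyte transcription factors, 5 were lower and none higher (8 lower without M00247, 3 without M00246), namely Klf15, the bile acid receptor Nr1h4, Cebpa, Onecut2 and Onecut1, with log2 fold changes of -1.35, -1.43, -0.80, -1.14 and -1.74 (edgeR adjusted p = 0.00145, 0.00732, 0.0329, 0.0407 and 0.0449). Of 31 plasma protein genes, 5 were lower and 2 higher, beside 3.64 and 6.98% of all genes tested, and the higher count was near that share. Alb (albumin) had 5963, 69449 and 30324 CPM against 12622, 29120 and 41262 CPM (log2 fold change 0.07 ± 0.57 SE, edgeR adjusted p = 0.954), below the normal range in M00236 and above it in M00248. The apolipoprotein gene Apoa4 was higher, at 1588, 3857 and 70.3 CPM in the tumours against 74.5, 144 and 464 CPM in normal livers (log2 fold change 3.10 ± 0.75 SE, edgeR adjusted p = 0.0202), though M00249 lay below the lowest normal liver. Without tumour M00248, Cps1 and Apoa4 did not pass (edgeR adjusted p = 0.101 and 0.153), and Got1, Cebpa, Onecut2 and Onecut1 missed the threshold when any of 2, 5, 9 and 9 of the 11 libraries was left out. With the random mouse block Apoa4 and Onecut1 did not pass (limma adjusted p = 0.237 and 0.0699).

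**Figure D3:**
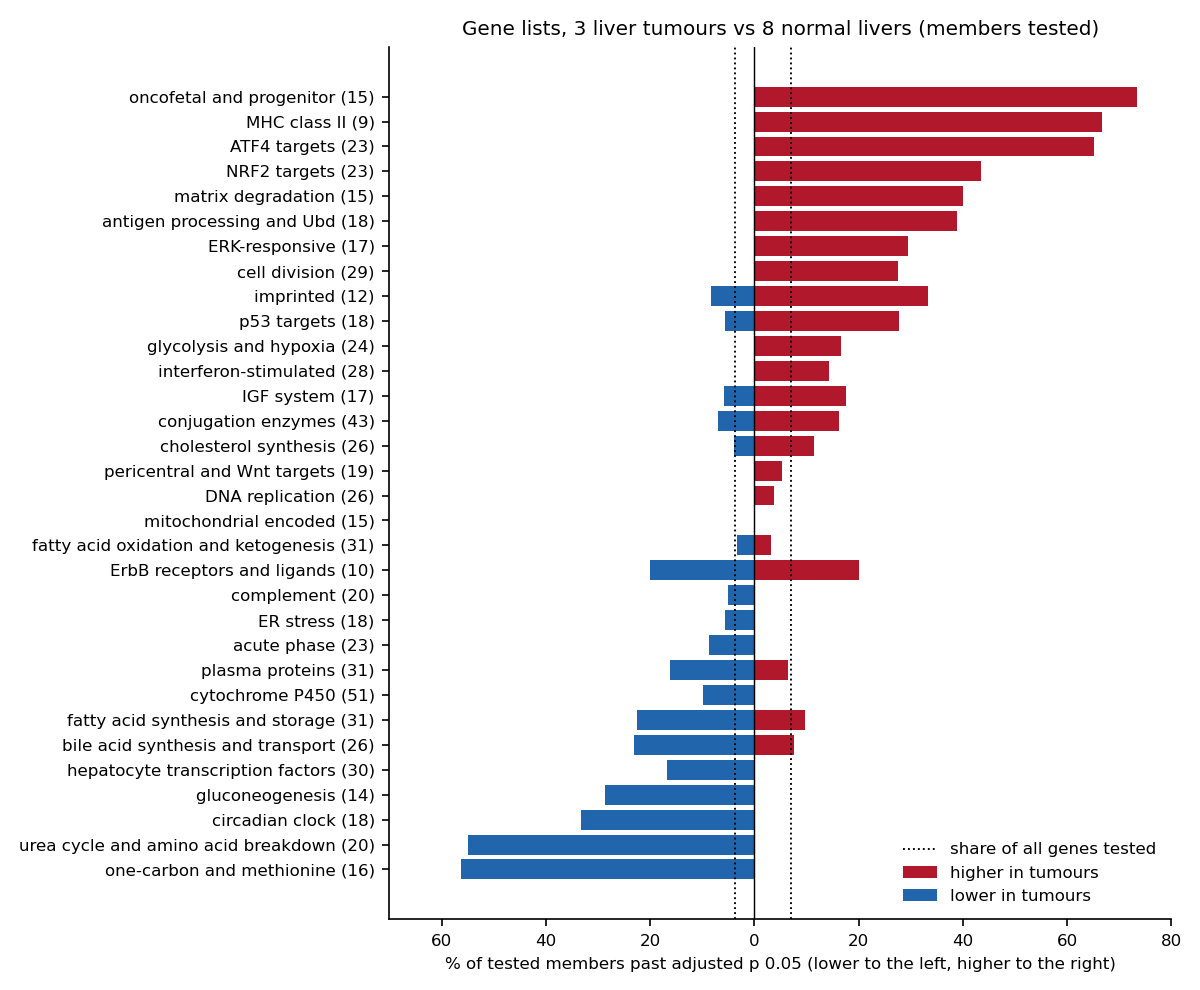
Share of the tested members of each gene list that was higher (right) or lower (left) in the 3 tumours than in the 8 normal livers, with dotted lines at the shares of all genes tested, 6.98 and 3.64%. Fetal liver, ATF4 and NRF2 lists lay to the right, and urea cycle and one-carbon lists to the left.

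The major urinary proteins, secreted carriers of pheromones that hepatocytes of male mice make in large amounts, held the lowest fold changes among genes called. They are near-identical genes that share reads, so values of single members are uncertain. Over 21 tested Mup genes the sum was 4262, 8108 and 2577 CPM in tumours M00236, M00248 and M00249, and 5152 to 81956 CPM in normal livers, where M00247 was lowest and the next was at 17612 CPM. Without M00247, the 3 tumours thus lay below each normal liver. Of the 21 genes, 18 were lower (20 without M00247). Mup22 had 437, 68.4 and 266 CPM against 2190, 9595 and 14511 CPM (log2 fold change -5.29 ± 0.80 SE, edgeR adjusted p = 0.00173), and Mup8, at 0 in the 3 tumours, was at least 155-fold lower against 3 counts over the group (edgeR adjusted p = 0.0194, 0.0619 without tumour M00248, and limma adjusted p = 0.311 with the random mouse block). A list of 16 genes known to be higher in male mouse liver had 3 lower (8 without M00247) and none higher. Its summed level was 2908 CPM in normal liver M00247 and 3947.5 CPM in normal liver M00235, both below the 3 tumours (4374 to 8280 CPM). In the remaining normal livers it was 7524 to 28554 CPM. Y-linked genes summed to 56.8, 115 and 36.3 CPM in the tumours, and to 93.9 to 138 CPM in the 7 normal livers other than M00247. The part of sex or hormone state in these values was not tested.

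Genes of the oxidative stress and amino acid stress programmes were higher. NRF2 is a transcription factor that turns on detoxifying and antioxidant enzymes, and ATF4 one that turns on amino acid import and synthesis when translation is slowed. Of 25 NRF2 target genes, 10 were higher and none lower. The median log2 fold change of the tested members was 0.86, 1.65 and 0.68 in tumours M00236, M00248 and M00249 singly. Nqo1, a quinone reductase, had 25.1, 73.2 and 26.8 CPM against 1.88, 3.68 and 6.18 CPM (log2 fold change 3.24 ± 0.36 SE, edgeR adjusted p = 0.000303), and Srxn1, which repairs oxidized peroxiredoxins, had 136, 257 and 88.0 CPM against 19.9, 23.6 and 34.1 CPM (log2 fold change 2.46 ± 0.28 SE, edgeR adjusted p = 0.000303). In both genes the 3 tumours exceeded the highest normal liver. Gstm3, a glutathione transferase, had 474, 100.2 and 338 CPM against 9.82, 24.8 and 40.5 CPM (log2 fold change 3.54 ± 0.44 SE, edgeR adjusted p = 0.000498). Gsta1 and Gstp2 share reads with close copies, and Gstp1 and Gstp2 together had 1613, 4602 and 3012 CPM in the tumours, against 365 to 1988 CPM in normal livers, so the groups overlapped in that sum. Of 28 ATF4 target genes, 15 were higher and none lower (12 without M00246). In the single tumours the median log2 fold change of the tested members was 1.38, 2.17 and 0.82 in the same order. Slc7a11, the cystine importer that both programmes share, had 1.44, 244 and 11.01 CPM against 0, 0.128 and 0.204 CPM, 8 counts in the 8 normal livers (log2 fold change 9.09 ± 1.12 SE, edgeR adjusted p = 0.000492). It was highest in M00248 and lowest of the tumours in M00236, still above the highest normal liver. With the random mouse block it did not pass (limma adjusted p = 0.247). Of the ATF4 genes 23 were tested. Genes that, like Slc7a11, passed the filter on low counts through the tumours alone had to differ, so the count of 15 is a description. Trib3, a pseudokinase induced by ATF4, had 17.1, 58.7 and 11.8 CPM against 1.12, 3.22 and 4.58 CPM (log2 fold change 3.17 ± 0.49 SE, edgeR adjusted p = 0.00207). Psat1, an enzyme of serine synthesis, had 5.65, 76.1 and 12.4 CPM against 0, 0.304 and 3.18 CPM (log2 fold change 5.23 ± 0.84 SE, edgeR adjusted p = 0.00244), and the next enzyme of that path, Psph, had a log2 fold change of 2.29 ± 0.34 SE (edgeR adjusted p = 0.00172). In each of these genes M00248 was highest and none of the tumours fell in the normal range. Atf3, a transcription factor of the response, had 12.3, 6.05 and 5.95 CPM against 0.132, 0.887 and 1.73 CPM (log2 fold change 3.14 ± 0.51 SE, edgeR adjusted p = 0.00242), and Gdf15, a secreted stress factor, had 25.1, 27.8 and 14.2 CPM against 3.01, 4.62 and 10.4 CPM (log2 fold change 1.87 ± 0.35 SE, edgeR adjusted p = 0.00597). The tumours again lay above the normal range for both, with M00249 lowest. Fgf21, a stress hormone of hepatocytes, had 26.7, 20.3 and 7.09 CPM against 0, 0.576 and 5.61 CPM (log2 fold change 3.66 ± 0.84 SE, edgeR adjusted p = 0.0161), while Asns and Chac1, also ATF4 targets, had log2 fold changes of 2.21 ± 1.27 and 0.75 ± 0.72 SE (edgeR adjusted p = 0.307 and 0.561). Without tumour M00236, Fgf21 had an edgeR adjusted p of 0.053. Of 18 genes of the endoplasmic reticulum stress response, none was higher and 1, Sel1l, was lower (-1.41 ± 0.23), near the 3.64% of all genes tested.

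ATF4 binds a composite element that can be written TGATGNAA. In the RefSeq promoter table of build GRCm38.p6 (250 bases before to 50 after each start), these letters stood on either strand in 10 of the 24 ATF4 list genes that had a promoter there, and in 3.97% of all 32851 promoters. For the NRF2 list, TGACNNNGC, the core of its antioxidant element, stood in 8 of 22 genes and in 12.4% of all promoters, and the looser TGANNNNGC, which includes it, in 16 of 22 genes and 41.3%. A list gene was counted if any of its promoters matched, while the share of all is over single promoters, so these are unlike measures. A match is a description and not a site. Windows of 30 bases are shown for 5 ATF4 targets and, with the NRF2 element, for Srxn1 and Abcc4, to show which letters stand near the start of genes that changed and of Asns and Chac1, which did not pass. The matching letters of Trib3 and Srxn1 begin at bases 15 and 29 counted from the start, and those of the other 5 before it. Each is printed 5' to 3' on the strand of the gene, with the matching letters in capitals (read on the other strand in all but Slc7a11 and Asns).
Slc7a11 (chr3:50443661-50443690, minus strand): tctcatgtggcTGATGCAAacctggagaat
Trib3 (chr2:152344028-152344057, minus strand): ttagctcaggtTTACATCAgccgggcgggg
Fgf21 (chr7:45615611-45615640, minus strand): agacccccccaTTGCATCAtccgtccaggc
Asns (chr6:7693214-7693243, minus strand): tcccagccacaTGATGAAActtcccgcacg
Chac1 (chr2:119351038-119351067, plus strand): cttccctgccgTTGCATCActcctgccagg
Srxn1 (chr2:152105542-152105571, plus strand): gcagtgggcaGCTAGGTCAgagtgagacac
Abcc4 (chr14:118706225-118706254, minus strand): gccccgagagGCGGGGTCAgggcgggccgg

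None of the ErbB receptors was higher in tumours, and Egfr was lower. The fusion transcript was not counted apart from its partner genes. Nrg1 had 43.3, 65.5 and 69.0 CPM in tumours against 0.675, 38.1 and 83.3 CPM in normal livers (log2 fold change 0.27 ± 0.70 SE, edgeR adjusted p = 0.852), the lowest being M00246. Without that liver the log2 fold change was 0.02 ± 0.34 SE (edgeR adjusted p = 0.983). Egfr had 89.0, 103 and 108 CPM against 136, 283 and 556 CPM (log2 fold change -1.70 ± 0.38 SE, edgeR adjusted p = 0.0137), with each tumour below the lowest normal liver. Erbb3, the neuregulin receptor of hepatocytes, had 11.5, 18.8 and 25.3 CPM against 16.9, 26.5 and 32.3 CPM (log2 fold change -0.69 ± 0.24 SE, edgeR adjusted p = 0.0839), and Erbb4 and Erbb2 were at or below 4.87 and 1.27 CPM in each liver, with Erbb2 under the filter on low counts. Of 17 ErbB genes, 10 were tested, and the EGFR ligands Btc (betacellulin) and Tgfa were higher while Egfr and the feedback inhibitor Errfi1 were lower. Btc had 20.1, 45.3 and 25.7 CPM against 0.659, 2.34 and 3.86 CPM (log2 fold change 3.46 ± 0.37 SE, edgeR adjusted p = 0.00023), above the normal range in each tumour. Of 22 genes known to respond to ERK signalling, 5 were higher and none lower. Singly, the median log2 fold change of the tested members was -0.17 in M00236, 1.62 in M00248 and 0.74 in M00249. Egr1, an immediate early transcription factor, had 5.29, 241 and 111 CPM against 2.03, 4.57 and 31.2 CPM (log2 fold change 3.72 ± 0.83 SE, edgeR adjusted p = 0.0136), and Dusp6, an ERK phosphatase, had 124, 259 and 42.4 CPM against 20.7, 33.1 and 63.4 CPM (log2 fold change 1.804 ± 0.42 SE, edgeR adjusted p = 0.0163). The high values were in M00248 for both genes, with M00236 inside the normal range for Egr1 and M00249 inside it for Dusp6. Without tumour M00248 only Ier3 of the 5 passed, with an edgeR adjusted p of 0.095 for Egr1, 0.15 for Dusp6, 0.171 for Dusp5 and 0.393 for Spry2, and that of the ligand Tgfa was 0.0554. With the random mouse block Egr1 and Dusp6 had limma adjusted p-values of 0.0697 and 0.0608.

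Some genes of antigen presentation were higher. Cd74, the invariant chain of MHC class II and the other partner of the fusion, had 36.4, 277 and 139 CPM against 14.9, 19.6 and 56.7 CPM (log2 fold change 2.31 ± 0.49 SE, edgeR adjusted p = 0.0106), so M00236 fell within the normal range. Of 10 MHC class II genes, 6 were higher and none lower, among them H2-Aa (87.4, 437 and 261 CPM against 17.2 to 94.1 CPM). Singly, the median log2 fold change of the tested members was 0.83 in M00236, 2.92 in M00248 and 2.18 in M00249. Of 18 genes of antigen processing, 7 were higher (3 without M00246), including the immunoproteasome subunits Psmb8 and Psmb9 (log2 fold change 1.51 ± 0.36 and 1.19 ± 0.29 SE). Of 28 interferon-stimulated genes, 4 were higher and none lower (7 without M00247, 2 without M00246). They were Isg15, Gbp2 and the T cell chemokines Cxcl9 and Cxcl10. Cxcl9 had 43.4, 316 and 67.6 CPM against 4.46, 10.7 and 29.7 CPM (log2 fold change 3.16 ± 0.55 SE, edgeR adjusted p = 0.00361), and Cxcl10 had 9.86, 103 and 10.0 CPM against 1.71, 2.81 and 6.75 CPM (log2 fold change 3.45 ± 0.59 SE, edgeR adjusted p = 0.00349), both highest in M00248. Of 16 T and NK cell markers 7 were tested, and 3 were higher, Trbc2, Ccl5 and Cd3d. The summed level of that list was 31.0 to 157 CPM in tumours and 5.41 to 38.0 CPM in normal livers. Without tumour M00248, H2-Aa and H2-Eb1 of the 6 class II genes passed, while H2-Ab1, H2-DMa and H2-DMb1 did not (edgeR adjusted p = 0.0778, 0.0774 and 0.0543). In the same fit Cd74, Psmb8, Cxcl10, Trbc2 and Ccl5 missed the threshold (edgeR adjusted p = 0.0966, 0.128, 0.0725, 0.111 and 0.115), and without M00236 so did Psmb9 (edgeR adjusted p = 0.077). Isg15 (limma adjusted p = 0.0595 with the random mouse block), Gbp2 and Cd3d missed it when any of 5, 4 and 10 of the 11 libraries was left out. The part of infiltrating cells in the class II and chemokine values was not tested.

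Lipid and sugar genes changed in part, where 6.98% of all genes tested were higher and 3.64% lower. Lpl, the lipase that takes up fatty acids from lipoproteins and is low in adult liver, had 269, 389.9 and 1004 CPM against 11.7, 19.8 and 93.3 CPM (log2 fold change 3.78 ± 0.61 SE, edgeR adjusted p = 0.00247), and the fatty acid carrier Fabp4 had 211, 49.1 and 50.6 CPM against 7.70, 9.44 and 18.5 CPM (log2 fold change 3.14 ± 0.40 SE, edgeR adjusted p = 0.000578). By contrast 7 of 32 genes of fatty acid synthesis and storage were lower, among them the lipogenic regulator Srebf1 (-1.97 ± 0.40) and the acetyl-CoA carboxylases Acaca and Acacb (-1.25 ± 0.27 and -2.21 ± 0.45). Singly against normal livers, the median log2 fold change of that list was 0.24 in M00236, -0.90 in M00248 and -1.32 in M00249. The 4 adipocyte markers tested (of 8), among them Fabp4, Cfd and Cidec, had a median of 4.25 in M00236. The defining fat cell genes Adipoq, Plin1 and Lep had no count in that tumour. The summed level of the list was 1761 CPM in M00236, 156 in M00248 and 742 in M00249, against 86.6 to 4089 CPM in normal livers, and its part in these values was not tested. Of 26 genes of glycolysis and hypoxia, 4 were higher (7 higher and 2 lower without M00247). Ankrd37, induced by hypoxia, had 19.6, 18.7 and 1.77 CPM against 0.132, 0.639 and 0.801 CPM (log2 fold change 4.37 ± 0.56 SE, edgeR adjusted p = 0.000578, and limma adjusted p = 0.0574 with the random mouse block). Ndrg1, also induced by hypoxia, had 52.9, 11.7 and 95.0 CPM against 4.47, 6.15 and 9.67 CPM (log2 fold change 2.82 ± 0.39 SE, edgeR adjusted p = 0.000974). The tumours ranked differently for these genes, with M00249 lowest for Ankrd37 and highest for Ndrg1. Of 26 cholesterol synthesis genes, 3 were higher and 1 lower (5 and 1 without M00247), the lower count being near the share over all genes. Singly, their median log2 fold change was 0.72 in M00236, 0.56 in M00248 and -0.43 in M00249. Igfbp1, an insulin-repressed binding protein of IGF, had 371, 2769.9 and 199 CPM against 13.3, 30.6 and 62.5 CPM (log2 fold change 4.78 ± 0.64 SE, edgeR adjusted p = 0.000788), while Igf1 had 349, 18.4 and 331 CPM against 742, 804 and 1044 CPM (edgeR adjusted p = 0.0536) and was lower in each tumour singly, most in M00248 (log2 fold change -5.70).

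Of 20 p53 target genes, 18 were tested, and 5 were higher and 1 lower, beside 6.98 and 3.64% of all genes tested. Without tumour M00248, Cdkn1a and Plk2 passed and Phlda3, Tnfrsf10b, Btg2 and Ei24 did not (edgeR adjusted p = 0.0596, 0.123, 0.463 and 0.133). Cdkn1a, which encodes the cell cycle inhibitor p21, had 71.9, 196 and 181 CPM against 2.16, 11.99 and 43.0 CPM (log2 fold change 3.23 ± 0.53 SE, edgeR adjusted p = 0.00269), and each tumour exceeded the normal range. Of 20 genes of matrix degradation, 15 were tested, and 6 were higher and none lower. Mmp13, a collagenase, had 5.05, 2.87 and 9.12 CPM in the tumours and 2 counts in the 8 normal livers (edgeR adjusted p = 0.000133). It passed the filter on low counts through the tumours alone and so had to differ. Mmp12, a macrophage elastase, had 17.6, 5.55 and 29.4 CPM against 0.135, 0.672 and 2.15 CPM (log2 fold change 4.25 ± 0.57 SE, edgeR adjusted p = 0.000838). For both genes each tumour exceeded the highest normal liver. Of 19 circadian clock genes, 6 were lower and none higher, Per3 with the smallest adjusted p (2.89, 7.24 and 3.67 CPM against 11.6, 13.7 and 17.6 CPM, log2 fold change -1.83 ± 0.30 SE, edgeR adjusted p = 0.00248). The labels used here give no hour of sampling.

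Cell division genes depended on which normal livers were used. Of 30 genes, 8 were higher in tumours with the 8 normal livers, 27 without M00247, 2 without M00246 and 25 without both. Their summed level was 443, 220 and 207 CPM in tumours M00236, M00248 and M00249, 324 CPM in normal liver M00247 and 23.5 to 84.9 CPM in the other 7. Mki67, a marker of cycling cells, had 10.102, 18.9 and 13.8 CPM against 2.30, 3.26 and 41.9 CPM (log2 fold change 0.69 ± 0.81 SE, edgeR adjusted p = 0.649), and without M00247 its adjusted p was 0.00113. Each tumour lay between the 7 livers and M00247. Cdk1, the kinase of mitotic entry, had 43.7, 14.97 and 12.03 CPM against 1.35, 2.35 and 15.3 CPM (log2 fold change 2.25 ± 0.66 SE, edgeR adjusted p = 0.0449), and it missed the threshold when any of 8 of the 11 libraries was left out. Acute-phase genes were likewise spread among the normal livers. Saa1 and Saa2, secreted in inflammation and sharing reads, together had 50.1, 383 and 86.8 CPM in the tumours, 56576 CPM in normal liver M00246, 35035 CPM in M00247 and 41.7 to 431 CPM in the other 6. Of 23 acute-phase genes, none was higher and 2, Saa4 and Crp, were lower (2 higher and 2 lower without both livers). Lcn2 (lipocalin 2), made by neutrophils and by stressed hepatocytes, had 49.5, 2536 and 249.3 CPM in the tumours, 1272 CPM in M00246 and 1874 CPM in M00247, so the level of tumour M00248 was nearest to those of these normal livers. The defining neutrophil gene S100a8 was at 9.38, 26.1 and 7.47 CPM in the tumours and at 1584 CPM in M00247. The other 7 normal livers had 1.86 to 10.9 CPM of it. Lcn2 held most of the summed neutrophil list in M00246 (1298 CPM) and in tumour M00248 (2591 CPM).

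**Figure D4:**
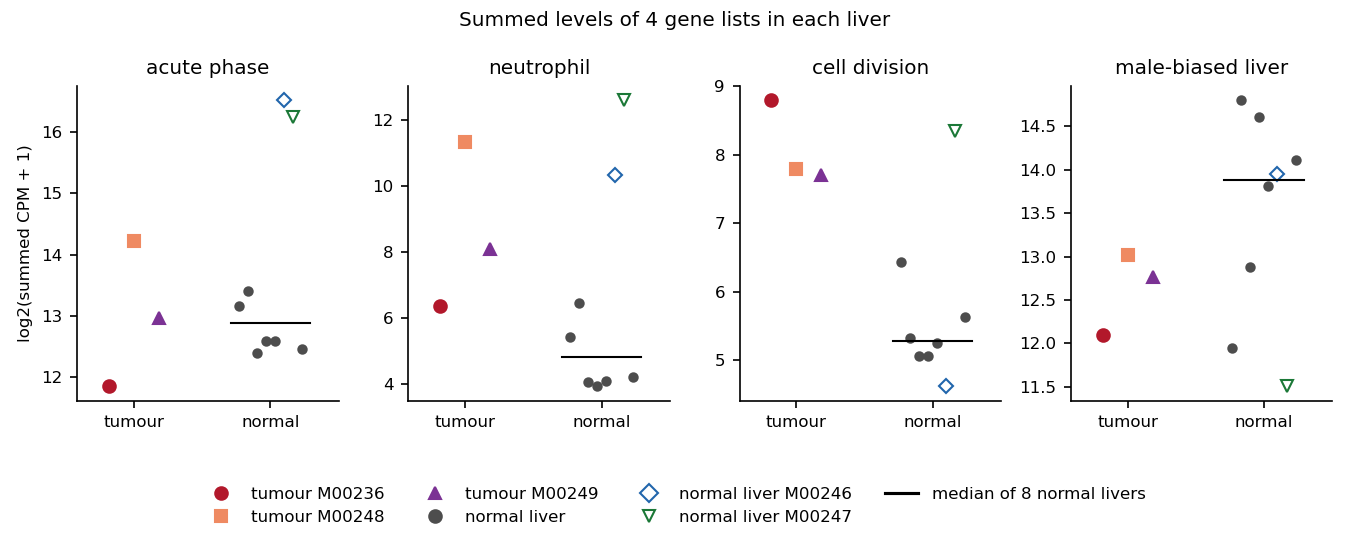
Summed level of 4 gene lists in each liver, on a log2(summed CPM + 1) axis, with tumours left and normal livers right. M00246 and M00247 were the highest normal livers for acute-phase and neutrophil genes, and M00247 was the highest normal liver for cell division and the lowest for male-biased genes. Lcn2 made 1272 of the 1298 CPM of the neutrophil list in M00246.

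Tumour M00236 differed most from the other 2 in pericentral and Wnt target genes. Libraries of mice M00235 to M00238 are numbered in another way than those of M00245 to M00249, and M00236 is the only tumour among the former. In contrasts between tumours, what sets M00236 apart cannot be told from a difference between these sets of libraries. Of 19 such genes, 8 were higher and none lower in M00236 against normal livers, 13 were lower and none higher in M00248, and 6 were lower and none higher in M00249. Over all genes tested these shares were 10.5% higher in M00236, 6% lower in M00248 and 0.837% lower in M00249. Against the other 2 tumours, 16 of 19 were higher in M00236, with 8.19% of all genes tested higher and 6.19% lower. Pooled, only Rhbg of the list passed, and it does so through M00236 (log2 fold change -0.91 without that tumour). Glul, the glutamine synthetase of the pericentral band, had 3695 CPM in M00236, 51.9 in M00248 and 148 in M00249, against 565, 685 and 802 CPM in normal livers. M00236 was above and the other two tumours below the whole normal range (log2 fold change 2.30 ± 0.24 SE, edgeR adjusted p = 0.00037 for M00236, log2 fold change -3.93 ± 0.40 SE, edgeR adjusted p = 0.000228 for M00248). Axin2, a direct target of beta-catenin, had 12.9, 0.0991 and 1.01 CPM in the tumours against 1.22, 2.10 and 5.01 CPM in normal livers (log2 fold change 2.23 ± 0.56 SE, edgeR adjusted p = 0.0203 for M00236). Sp5, another direct target, had 11.3, 0 and 0.127 CPM against 1.16, 1.53 and 2.98 CPM (log2 fold change 2.58 ± 0.49 SE, edgeR adjusted p = 0.00619). Both genes were above the normal range in M00236 and below it in M00248 and M00249. Nkd1, a feedback inhibitor of Wnt, had 15.9, 0.694 and 2.15 CPM against 2.93, 4.46 and 4.796 CPM, and Notum, a secreted enzyme that inactivates Wnt, had 27.2, 0.991 and 2.79 CPM against 6.79, 10.6 and 15.6 CPM (edgeR adjusted p = 0.0056 and 0.0649 for M00236). Slc1a2, a glutamate transporter of pericentral hepatocytes, had 309, 2.48 and 8.48 CPM against 85.9, 122 and 158 CPM (log2 fold change 1.25 ± 0.33 SE, edgeR adjusted p = 0.0257). These 3 genes were ordered as Glul was. Cyp2e1, a pericentral P450 enzyme, had 1970.4, 50.5 and 96.3 CPM against 685, 1738 and 2833 CPM, and Cyp1a2, another, had 410.2, 16.8 and 84.1 CPM against 178, 431 and 709 CPM. Both were within the normal range in M00236 and below it in the other two tumours. Lgr5, a Wnt co-receptor, had 5.89, 0.0991 and 0.633 CPM against 1.45 to 5.61 CPM. Ccnd1 did not follow the pattern, with 131, 263 and 159.9 CPM against 29.0 to 306 CPM.

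The letters CTTTGAT, the core recognized by TCF factors of the Wnt pathway, stood in the promoter window of 3 of the 11 list genes present in the RefSeq table and in 3.73% of all promoters (CTTTGAA in 2 of 11 and 5.14%, and CTTTGNNN, which includes both, in 6 of 11 and 53.5%). As before, list genes were counted by any of their promoters and the share of all by single promoters. The 3 windows of CTTTGAT are shown in the same way, with the match in capitals, read on the gene's own strand in Sp5 and on the other strand in Slc1a2 and Lect2.
Sp5 (chr2:70474808-70474837, plus strand): ggcaaggccccCTTTGATcaggaaaatcca
Slc1a2 (chr2:102706220-102706249, plus strand): agaagagggacATCAAAGgccccaaatggt
Lect2 (chr13:56548552-56548581, minus strand): tgcttctccagATCAAAGgctttggccggc

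**Figure D5:**
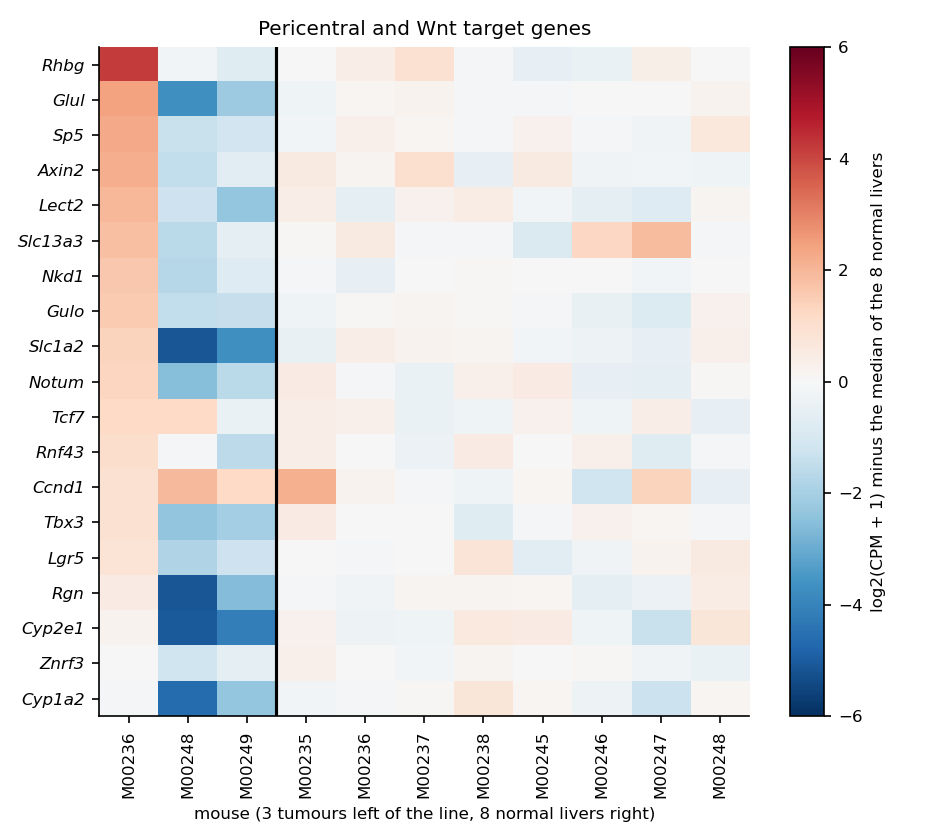
Heat map of 19 pericentral and Wnt target genes, as log2(CPM + 1) minus the median of the 8 normal livers, in each tumour (left of the line) and each normal liver. Glul, Sp5, Axin2 and Rhbg were above the normal median in tumour M00236 and Glul, Sp5 and Axin2 below it in M00248 and M00249.

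Other genes set M00236 apart. Bglap3, an osteocalcin-like gene, had 1728, 0.694 and 0.76 CPM in the 3 tumours against 0.372 to 2.15 CPM in normal livers (log2 fold change 10.89 ± 0.44 SE, edgeR adjusted p = 1.34e-06 for M00236). Oat, a pericentral ornithine aminotransferase, had 3023, 8.23 and 39.4 CPM against 128 to 685 CPM. Lhpp, a histidine phosphatase, had 168, 1.09 and 0.506 CPM against 6.21 to 24.0 CPM. Oat and Lhpp were above the normal range in M00236 and below it in the other two tumours. Alb was lower in M00236 than in each normal liver (log2 fold change -2.39 ± 0.74 SE, edgeR adjusted p = 0.0447). Haemoglobin genes were high in that tumour and in the normal liver of the same mouse, with erythroid markers at 23221 and 15642 CPM, against 1470 to 8557 CPM in the other 9 livers.

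Several fetal and secreted genes were highest in tumour M00248. Against the other 2 tumours 297 genes were higher and 227 lower, 2.24 and 1.71% of those tested. Spink1, a trypsin inhibitor, had 1.32, 727 and 66.7 CPM in the tumours against 0.124 to 2.60 CPM in normal livers (log2 fold change 9.68 ± 0.59 SE, edgeR adjusted p = 7.42e-06 for M00248), and Gpc3 (glypican 3), an oncofetal surface proteoglycan, had 1.92, 124 and 1.77 CPM against 0.135 to 3.32 CPM (log2 fold change 6.49 ± 0.53 SE, edgeR adjusted p = 5.52e-05). Spink1 was also raised in M00249, and Gpc3 was within the normal range in M00236 and M00249. Ocstamp, a fusion protein of osteoclast precursors, had 1.203, 231 and 4.43 CPM against 0.248 to 3.46 CPM. Sox9, a transcription factor of bile duct and progenitor cells, had 6.01, 131 and 119 CPM against 7.57 to 31.2 CPM, and Spp1 (osteopontin) had 31.5, 992 and 142 CPM against 8.06 to 128 CPM. Both were highest in M00248, and Sox9 in M00236 lay below the normal range. The serine dehydratase Sds was at 0.297 CPM in M00248 against 62.3 to 183 CPM in normal livers, and the P450 enzyme Cyp2c54 at 0.991 CPM against 61.1 to 293 CPM. The median log2 fold change of the 20 urea cycle and amino acid genes was -2.10 in M00248, and that of the 26 bile acid genes -2.08. Cyp2a4 and Cyp2a5, which share reads, summed to 4811 CPM in M00248, against 78.6 to 892 CPM in normal livers.

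Tumour M00249 had the fewest genes called. H19, an imprinted noncoding RNA of fetal liver, had 3.25, 26.2 and 5454 CPM in the 3 tumours against 1.24, 1.79 and 26.1 CPM in normal livers (log2 fold change 9.88 ± 1.059 SE, edgeR adjusted p = 0.000931 for M00249). The high value was in that tumour, and the other two lay at most 26.2 CPM. Gsn (gelsolin), an actin-severing protein, had 7.94, 14.2 and 478 CPM against 11.3 to 19.7 CPM (log2 fold change 4.83 ± 0.20 SE, edgeR adjusted p = 6.54e-07), and Defb1, an epithelial defensin, had 0.12, 0.793 and 46.6 CPM against 0.102 to 2.63 CPM (log2 fold change 5.26 ± 0.64 SE, edgeR adjusted p = 0.00223). Some hepatocyte genes that were below the normal range in the other two tumours were within or above it in M00249. Cyp2f2, a periportal P450 enzyme, had 25.7, 15.2 and 899.5 CPM against 165 to 772 CPM. Hamp (hepcidin), the iron hormone, had 96.8, 18.2 and 749.6 CPM against 722 to 2280.1 CPM. Dbp, a clock output transcription factor, was lower in M00249, at 0.886 CPM, with 47.7 and 56.6 CPM in the other tumours and 29.7 to 56.0 CPM in normal livers (log2 fold change -5.77 ± 0.50 SE, edgeR adjusted p = 0.000234), while Arntl (Bmal1), a core activator of the clock, had 1.44, 1.68 and 9.37 CPM against 1.01 to 1.99 CPM (log2 fold change 2.35 ± 0.46 SE, edgeR adjusted p = 0.0294).

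Markers of several other cell types moved in part, where 6.98% of all genes tested were higher and 3.64% lower. Of 14 cholangiocyte markers 6 were tested, and Sox9, Spp1 and Cdh1 were higher, with a summed level of 74.0 to 1435 CPM in tumours and 33.5 to 211 CPM in normal livers. Cdh1 (E-cadherin), which hepatocytes also express, missed the threshold when any of 8 of the 11 libraries was left out, Spp1 with any of 7 and Sox9 without tumour M00248 or M00249, and the call of Sox9 and of Spp1 was lost with the random mouse block. The defining bile duct genes Krt7, Krt19 and Epcam were at 4.81 CPM or less in each liver. Collagen genes Col1a1, Col1a2 and Col3a1 were higher (log2 fold changes 2.51 ± 0.49, 1.88 ± 0.32 and 2.21 ± 0.37 SE), and 3 of 20 stellate and fibroblast markers in all. Of 18 endothelial markers, Cd34, Emcn and Esam were higher and Stab2 and Clec4g, both of liver sinusoids, lower (-1.53 ± 0.30 and -1.45 ± 0.37), though Esam had an edgeR adjusted p of 0.13 without tumour M00236 and a limma adjusted p of 0.0716 with the random mouse block. Of 20 Kupffer cell and macrophage markers, Cd163 was lower (3.01, 0.0991 and 0.506 CPM against 5.20 to 29.99 CPM, log2 fold change -3.65 ± 0.82 SE, edgeR adjusted p = 0.0145, limma adjusted p = 0.053 with the random mouse block) and none higher (2 higher without M00247), and the summed level was 631 to 1399 CPM in tumours and 354 to 2087 CPM in normal livers, highest in M00247. The median log2 fold change of that list was -0.12 with the 8 normal livers and 0.46 without M00247. Of 20 B and plasma cell markers 18 were tested and none passed. Of 14 neutrophil markers 5 were tested and none passed, with a median log2 fold change of -3.92 with the 8 normal livers and 1.10 without M00247. Skeletal muscle markers summed to 24.1 to 34.2 CPM in tumours and 22.3 to 73.6 CPM in normal livers. Pancreas markers summed to 35.8 to 183 CPM in tumours and 9.96 to 43.6 CPM in normal livers, and Cela1, an elastase, was the 1 gene of that list tested and was higher (2.04 ± 0.46, edgeR adjusted p = 0.0145, and 0.0832 without tumour M00236).

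The outlying normal liver of M00247 also differed in single genes, given here as values with no test. Against the nearest of the other 7 normal livers at 20 CPM or more, its highest genes included S100a8, S100a9, Camp, Retnlg and Ly6c2, of neutrophils and monocytes, and Cyp3a41a, a P450 enzyme of female mouse liver, at 1115 CPM, with 3.42 CPM or less in each tumour. Its lowest genes were Mup19, Mup7, Mup14 and the Y-linked Ddx3y, at 0, 22.5, 22.1 and 0.866 CPM, where the other normal livers reached 12690, 12377, 11794 and 99.5 CPM. Since it entered the normal group, each fold change of these genes includes it. Mouse M00247 also bore intestine tumours, and their part in the values of its liver was not tested.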

How the data were processed

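The deposited table holds expected counts per gene, made by the authors from QuantSeq 3' libraries sequenced on a HiSeq4000, per the labels' protocols. How the reads were aligned and counted, and on which build, is not given in the sources used here. The table held 54838 genes, and 6.94% of the values in livers were not whole. Values were rounded, which moved a library's total by at most 0.00074%. A table of CPM made by the authors was not used, since CPM was computed again from the counts.

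The 3 tumours and 8 normal livers were compared with edgeR 4.0.16 in R 4.3.3 (TMM scaling, filterByExpr at a minimum count of 10, two-sided quasi-likelihood test, Benjamini-Hochberg adjusted p under 0.05 over 13256 genes). Standard errors of log2 fold changes were taken from the F statistic. List members under the filter could not pass, so list counts can rest on fewer tested genes. These were 17 of 22 for ERK, 23 of 28 for ATF4 and 23 of 25 for NRF2. Genes near 0 in normal livers could pass the filter through the tumours alone and then had to differ. A second fit gave each tumour its own coefficient and took its spread from normal livers alone. Alternatives used DESeq2 1.42.0 and limma 3.58.1, other scaling and filters, a mouse block, subsets of mice and each library left out. Mice M00236 and M00248 pair a tumour with a normal liver of the same animal. On simulated data for 3 against 8 libraries, the test recovered 22, 90, 96 and 100% of genes changed 2, 4, 8 and 16 times. For 1 against 8 it recovered 2, 42, 78 and 90%. In both, 13256 genes were simulated. No pair of normal livers was alike within counting noise, with a smallest chi-square per degree of freedom of 20.8.

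The groups, the 49 gene lists and the genes named were chosen with earlier results of these data known. Named were the highest and lowest log2 fold changes whose groups did not overlap (at a mean of 5 CPM or more), the same for each single tumour (at 20 CPM), and up to 6 members of each list by adjusted p. Of 343 genes, 24 were added after their values were seen, among them Alb, Cps1, Asl, Fgf21, Asns, Chac1, Mki67, Cdk1, Lcn2 and the further pericentral genes. Promoter letters are from RefSeq, build GRCm38.p6.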

Additional observations from a re-analysis of the deposited data

Results flagged for a closer look

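In 78 results (single genes and summed lists), the highest or lowest of the 8 normal livers was set against the rest by the gap to its nearest neighbour over the whole range and compared with the 95% critical value of Dixon's test. The value was exceeded 9 times, 5 of them in M00247, where chance alone exceeds it in about 1 of 20 groups. Nrg1 was low in M00246 (ratio 0.724). Slc7a11 in M00237 gave 0.574, where the 8 normal livers held 8 counts in all. In M00247, Ly6d was high (0.577), Mup22 and Mup3 were low (0.551 and 0.598), and the summed urea cycle list and the summed lung epithelium list were low (0.556 and 0.56). The lung epithelium list includes Cyp2f2, described above as a periportal P450 enzyme, so its sum in liver does not measure lung tissue alone. The summed ErbB list stood apart in M00236 (0.566) and the summed p53 list in M00235 (0.686).

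Each tumour differed from the other two in a test of that difference, with the spread taken from normal livers. The number of genes past an edgeR adjusted p of 0.05 was 1907 for M00236, 524 for M00248 and 251 for M00249.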

How the results depend on the processing

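The count of 1407 genes between tumours and normal livers stayed within 1.5 times under other scaling, DESeq2, no filter, a filter at 5 CPM, covariates for Y-linked expression or library naming, removal of haemoglobin, immunoglobulin and mitochondrial genes, unrounded counts, and, chosen after seeing the data, limma with mouse as a random block (1310 genes, consensus correlation -0.157) or omission of M00246 and M00247 (1655). With mouse as a fixed block, the pairing of M00236 and M00248, it was 0, and each of the 200 called named genes lost its call. It was 2289 in mice M00235 to M00238 alone (1 tumour) and 164 in mice M00245 to M00249 alone. Leaving out 1 library gave 860 (tumour M00248) to 1919 (normal liver M00247). Of the 200 called named genes, 102 passed in each of these fits in which they were tested, and 1 of them, Sdcbp2, was tested in only 5. The cause of these differences was not tested, beyond the smaller number of samples.

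For single tumours, leaving out 1 normal liver gave 2145 to 3174 genes for M00236 against normal livers, 1368 to 2788 for M00248 and 138 to 1240 for M00249. Against the other tumours it gave 1479 to 2572 for M00236, 326 to 1008 for M00248 and 105 to 589 for M00249. The highest of these for M00248 and M00249 was without M00247. For M00248 against the other tumours it was 343 without M00235 and 326 without normal liver M00248. For M00249, omission of any normal liver but M00236 moved both counts by over 1.5 times. With no filter, M00236 against the other tumours gave 1241 and M00249 gave 158, and at 5 CPM M00249 gave 426.

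Some log2 fold changes turned sign. Over the fits that leave out 1 library, Bglap3 ranged between -0.438 and 9.887, Lhpp between -4.42 and 2.356, Oat between -4.378 and 1.776, Rhbg between -0.912 and 3.232, Glul between -3.054 and 1.344, Gulo between -1.571 and 0.698, Lect2 between -1.919 and 1.076, Nkd1 between -1.842 and 0.945 and Sp5 between -4.802 and 1.587, each lowest without tumour M00236. Without tumour M00249, Defb1 was lowest, between -1.234 and 4.271, as was Gsn, between -0.491 and 3.869. Ly6c2 lay between -1.673 and 1.769, the highest without normal liver M00247, and was 1.681 by DESeq2. With the fixed block, Defb1 was -1.427 and Gsn -0.586. In mice M00245 to M00249 alone, Lhpp was -4.079, Rhbg -0.619 and Glul -3.085. In mice M00235 to M00238 alone, Tstd1 was -2.866, Defb1 -3.401, Aebp1 -2.463, Sgsm1 -0.253, Gstp2 -9.064, Gsn -1.075, Apom -0.022, Dusp5 -0.648, Spry2 -0.029, Sox9 -1.12, Slc13a3 1.62 and Alb -2.531. The 3 tumours and the shares of genes recovered in simulation limit what could be called at 2-fold, above all for a single tumour.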

Other observations

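Further lists are given by their counts in the comparison of tumours with normal livers, where 6.98% of all genes tested were higher and 3.64% lower. A count of 1 gene in these lists is near those shares. Of 45 conjugation enzymes, 7 were higher and 3 lower (7 and 6 without M00247, 4 and 3 without M00246), and the 7 were glutathione transferases, among them Gsta1, Gstm3 and Gstp2. Of 20 complement genes, 1 was lower (Masp2), and the median log2 fold change of the list in tumour M00236 singly was -1.005. Of 26 DNA replication genes, 1 was higher (Ccne1, and none without M00246). Of 22 imprinted genes, 12 were tested, H19, Grb10, Impact and Airn were higher and Slc38a4 lower. Airn passed in each fit that left out 1 library, Impact missed the threshold in 9 of the 11, H19 without tumour M00249 (edgeR adjusted p = 0.405), Grb10 without tumour M00248 (0.0564) and Slc38a4 without tumour M00248 or tumour M00249. None of the 15 mitochondrially encoded genes passed in either direction.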
